A study of Mus musculus with 71 samples.

Results

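The cytosolic ribosomal protein genes were read from the symbols of the count tables as every symbol that starts with Rpl, Rps or Rplp and a digit, leaving out loci named as pseudogenes and the ribosomal S6 kinases. The rule found 92 of 55416 gene identifiers. By their names and annotation, 43 encode large subunit proteins, 30 small subunit proteins and 3 the ribosomal stalk, 8 are paralogues of these, 7 carry a pseudogene biotype in GENCODE mouse release M21 although their symbols lack the pseudogene ending, and 1, Rps19bp1, encodes a binding partner of Rps19 and no ribosomal protein. The rule leaves out 291 loci named as pseudogenes of these genes, which are described separately, and parts of the ribosome whose symbols differ, such as Rpsa, Fau and Rack1.

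The cytosolic ribosome translates nuclear-encoded mRNAs, and each of its proteins is normally present as a single copy per particle, except for the paired stalk proteins Rplp1 and Rplp2, which are anchored by Rplp0 and recruit translation factors. Many ribosomal protein mRNAs begin with a C followed by an unbroken run of pyrimidines, the terminal oligopyrimidine (TOP) element, through which mTORC1 and the RNA-binding protein Larp1 control their translation and stability. In neurons, ribosomes occur in the cell body and in dendrites and axons, where local translation takes part in synaptic plasticity. Most ribosomal protein genes have many processed pseudogenes, so short reads from these mRNAs can match more than 1 place in the genome.

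Sequences around the transcription starts show the TOP element in a few members. RefSeq promoter entries (GRCm38.p6, 250 bases before to 50 after each start) existed for 67 of the 92 genes, in 79 promoters. A start at C followed by at least 4 bases that are C or T was found in 15 of the 79 member promoters (19.0%) and in 823 of 32851 promoters of all genes (2.51%). The letters CCGGAA, searched on both strands and held by the binding sites of ETS-family factors, occurred in 36 of the 79 (45.6%) against 14.9% of all promoters. The following 30-base windows are given for Rps6, whose protein is the classic phosphorylation target of the S6 kinases, for the stalk gene Rplp2, for Rps18 and Rps27, for Rps27rt, a paralogue that differed between regions, and for Rpl22l1, whose listed start is not of this kind. Capitals mark the start base and its pyrimidine run, and position 16 of each window is the start listed in RefSeq.
Rps6, chr4:86857353-86857382, minus strand: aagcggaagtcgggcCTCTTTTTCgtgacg
Rplp2, chr7:141447636-141447665, plus strand: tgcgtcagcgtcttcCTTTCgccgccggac
Rps18, chr17:33955651-33955680, minus strand: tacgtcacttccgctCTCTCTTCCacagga
Rps27, chr3:90213634-90213663, minus strand: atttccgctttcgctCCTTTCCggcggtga
Rps27rt, chr9:114982725-114982754, minus strand: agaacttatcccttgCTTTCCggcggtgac
Rpl22l1, chr3:28805493-28805522, plus strand: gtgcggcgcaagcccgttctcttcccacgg
A start without the run says only that these letters are not at the listed base.

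RNA from hippocampus, frontal cortex and piriform cortex of C57BL/6J mice was sequenced as single-end reads of 100 bp in 71 libraries. In the burn group a brass rod 19 mm across, heated above 90 °C, was held on the shaved right flank for 10 s, giving a full-thickness burn of 7 to 8% of the body surface. In the excision group full-thickness skin was removed from the back along a 12 mm template, and in the sham group the back was shaved only. All groups received isoflurane, buprenorphine at 0.1 mg/kg and paracetamol in the drinking water at 1 mg/mL for 5 days, so these are shared by the controls. The sources used here give no time to collection, age or sex. Hippocampus had 10 burn, 10 excision and 9 sham libraries and frontal cortex 10, 10 and 8, each in 2 batches, and piriform cortex had 5, 4 and 5 in batch 3. The titles of all batch 3 libraries name frontal cortex, whereas the region label followed here is piriform cortex. The labels do not say that the libraries of a group are separate animals, so p-values measure the spread between libraries. They also do not say whether the regions share animals, and comparisons between regions took libraries as independent.

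The totals ran from 6.65 M to 87.8 M counts per library (M for 1000000), with 6.65 M to 34.1 M in hippocampal batch 1 and at least 30.7 M elsewhere. No pair of libraries within a group held identical values. In sham libraries all 8 hippocampal markers had a higher fitted level in hippocampus than in frontal cortex, and 7 of 8 a higher one than in piriform cortex. A single piriform library that touches the results below stood apart. The library labelled piriform cortex sham replicate 1 had 50.7 counts per 1000000 (CPM) of Lct, 39.6 of Dsp and 102 of C1ql2, against at most 1.97, 0.167 and 3.23 in the other 13 piriform libraries. Striatal Adora2a varied from 1.86 to 133 CPM among the other piriform libraries and from 2.56 to 104 CPM among frontal libraries; the part of such differences in the members' levels was not tested. In 4 libraries (frontal cortex burn replicates 7 and 8, frontal cortex excision replicate 7 and piriform cortex sham replicate 2) the title names another treatment than the treatment field, which was followed here. In bulk tissue, fewer cells of a type and less RNA per cell cannot be told apart.

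Together the members took a median of 1.68% of all counts in hippocampal batch 1 (range 1.45 to 2.08%, n = 14) and 1.43% in hippocampal batch 2 (1.26 to 1.82%, n = 15). In the frontal cortex the medians were 1.28% in batch 1 (1.14 to 2.43%, n = 15) and 1.33% in batch 2 (1.11 to 1.69%, n = 13), and piriform libraries ran from 0.979 to 1.68% (n = 14). The ranges of the 3 regions overlapped. Frontal cortex sham replicate 1 held the highest share, 2.43%, and piriform cortex sham replicate 1 the highest of its region, 1.68%. Burn libraries of the first frontal batch lay closest together, between 1.14 and 1.20%.

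**Figure D1:**
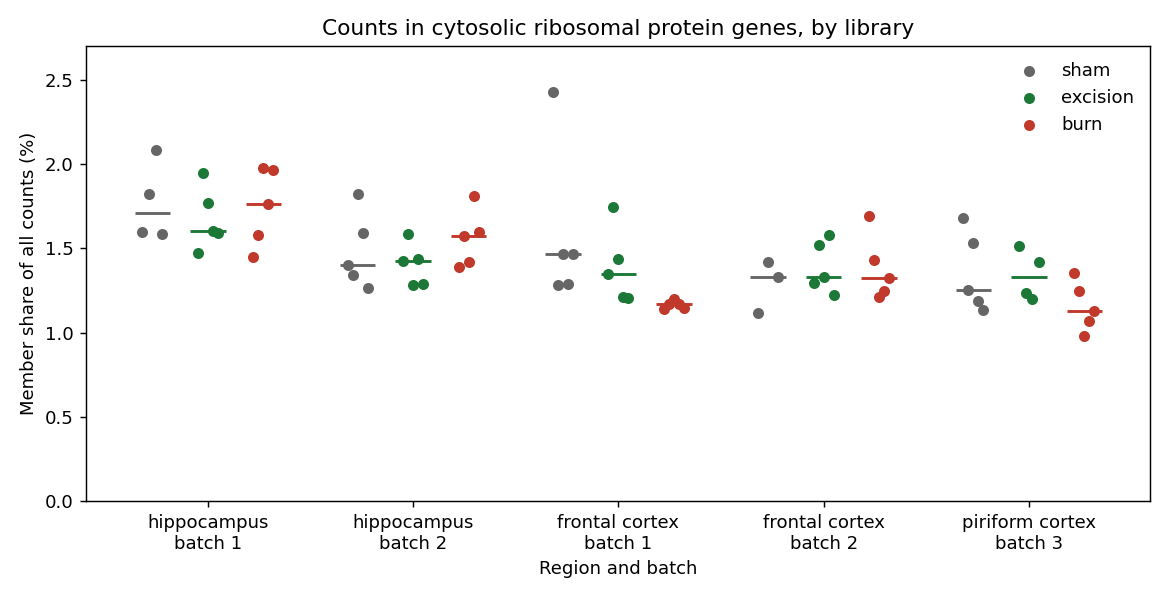
Share of all counts in the 92 members (y axis, percent) for each of the 71 libraries, grouped by region and batch (x axis). Points are libraries coloured by treatment and bars are group medians. The highest point is frontal cortex sham replicate 1 at 2.43%, and the 5 burn libraries of the first frontal batch sit between 1.14 and 1.20%.

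Levels differed widely between members when compared per kilobase of the principal transcript (mean CPM per kb ± SD over all libraries of a region). These values depend on the transcript taken, which had 5130 bases for Rps15a (24.2 over all libraries) and 3706 for Rps20 (30.4). The part of transcript choice in the differences was not tested. The stalk protein gene Rplp1 was highest in every region, at 973 ± 185 in hippocampus (n = 29), 783 ± 173 in frontal cortex (n = 28) and 816 ± 196 in piriform cortex (n = 14). Its partners in the stalk were lower, with Rplp2 at 168 ± 33.4 and Rplp0 at 178 ± 26.3 in hippocampus. After Rplp1 came the small subunit genes Rps15 (701 ± 142 in hippocampus) and Rps29 (692 ± 136) and the large subunit gene Rpl41 (635 ± 131), whose spreads overlapped, so their order is not resolved. Rps6 stood at 304 ± 42.9, 276 ± 52.6 and 264 ± 50.4 in hippocampus, frontal and piriform cortex, and Rpl11, which with Rpl5 binds Mdm2 when ribosome assembly fails, at 267 ± 46.8, 224 ± 52.0 and 208 ± 38.6. The median small subunit gene (248 CPM per kb over all libraries) and large subunit gene (233) were close.

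Paralogues were far below the genes they derive from. Rpl22l1, which can take the place of Rpl22 in the ribosome, stood at a mean of 43.2 CPM per kb in hippocampus (range 33.1 to 57.0, n = 29) against 196 for Rpl22. Rps27l, a p53 target, stood at 16.8 ± 2.40 against 426 for Rps27, and Rpl7l1 at 16.1 ± 1.29 against 187 for Rpl7. The striated muscle form Rpl3l (0.23 in each region, against 403 for Rpl3 in hippocampus) and Rpl39l (0.07 in hippocampus against 111 for Rpl39) were near the floor. Rpl10l, Rpl39l and Rps12l1 did not pass the filter on low counts, which left 89 members for testing. Rpl36al, a paralogue of Rpl36a, and 3 genes of the subunits were also low, at 0.753 for Rpl36al in hippocampus, with Rpl24 at 5.52, Rps10 at 2.27 and Rpl13a at 20.2. Another annotated gene overlaps over 50% of the exonic length of these 4 on the same strand, so their levels are uncertain.

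The core members deviated together from library to library. Of 73 core members (the 76 subunit and stalk genes without Rpl13a, Rpl24 and Rps10), more than 90% lay on the same side of their region and batch mean in 55 of 71 libraries, and all 73 did in 28. The library's offset, the median log2 deviation of the 73 genes, ran from −0.42 in piriform cortex burn replicate 3 to 0.89 in frontal cortex sham replicate 1. A typical gene varied within the treatment groups of a region and batch with an SD of 0.21 to 0.28 on the log2 scale. The SD was 0.05 to 0.09 once each library's median deviation from its treatment group's means was taken away. The offset had the same sign as that of the nuclear-encoded oxidative phosphorylation subunits in 66 of 71 libraries, of the mitochondrial ribosomal proteins in 62 and of 17 other TOP mRNAs of the translation machinery in 68. For 9 neuronal markers the sign was the same in 33 of 71, and for 13 mitochondrially encoded genes in 34. Counts of members below are therefore not counts of independent events.

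No member was called between treatments. In each of the 9 treatment comparisons (each pair of the 3 treatments in each region), edgeR's quasi-likelihood test with Benjamini-Hochberg adjustment over all genes called 0 of 89 members at adjusted p under 0.05, and DESeq2 also called 0. Burn against sham and excision against sham share the sham libraries, so their values stand side by side and are not separate evidence.

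**Figure D2:**
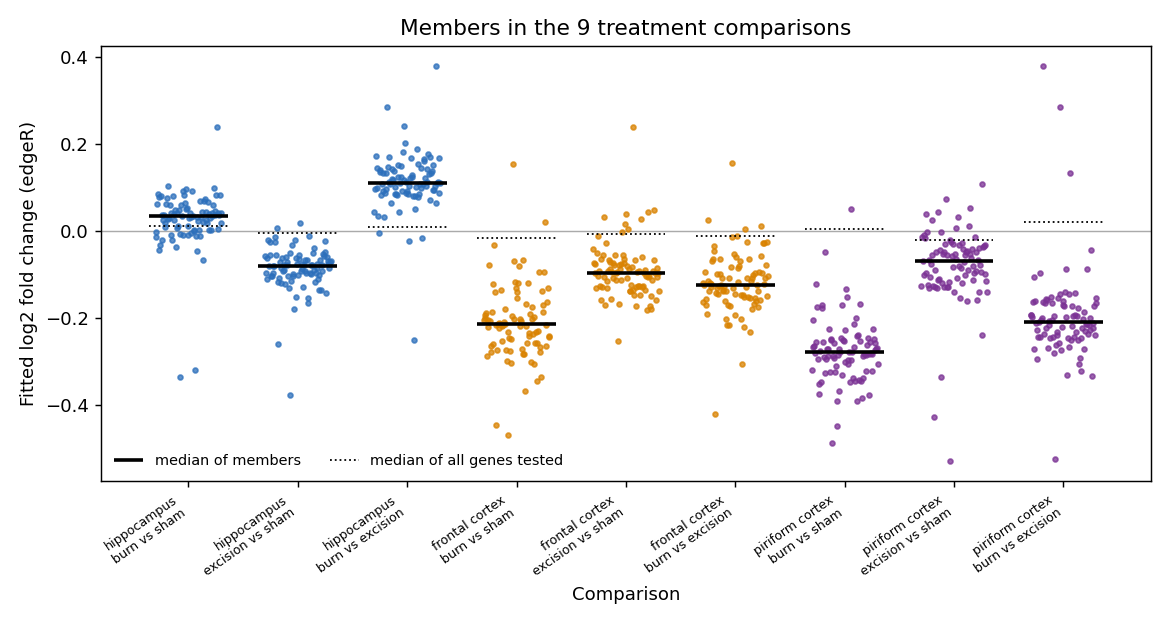
Fitted log2 fold changes (y axis) of the 89 tested members in the 9 treatment comparisons (x axis). Points are members, solid bars the median of members and dotted bars the median of all genes tested. The member medians are lowest for burn against sham in the piriform (−0.28) and frontal cortex (−0.21) and highest for burn against excision in the hippocampus (0.11).

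In the hippocampus burn and sham libraries had close member levels. For burn against sham the median log2 fold change was 0.03, against 0.01 over all genes, 70 of 89 were above zero and 0 reached an unadjusted p under 0.05 (1.03% of all genes were called, 0.291% higher and 0.741% lower). Rps6 had a lowest, median and highest level of 208, 261 and 322 CPM in sham, 215, 247 and 333 in excision and 231, 265 and 331 in burn libraries, so the groups overlapped almost entirely. Its log2 fold change of burn against sham was 0.04 (SE 0.08, edgeR adjusted p = 0.854). The stalk genes Rplp0, Rplp1 and Rplp2 stood at 0.04, 0.00 and 0.00. The 3 smallest p-values belonged to Rps10 (−0.32, SE 0.16, adjusted p = 0.285), Rps4l (0.24) and Rpl4 (0.10). The median fell to −0.03 without burn replicate 9, the hippocampal library with the highest offset.

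Excision against sham in the hippocampus gave a median of −0.08 with 2 of 89 members above zero, 0 at an unadjusted p under 0.05 and 0% of all genes called. That median was −0.04 without sham replicate 3 or sham replicate 7 and −0.11 without excision replicate 2. Burn against excision gave 0.11 with 85 above zero and 7 at an unadjusted p under 0.05 (0.209% of all genes called, 0.0664% higher). Without burn replicate 9 its median was 0.06 with 2 members at an unadjusted p under 0.05, and without excision replicate 2 it was 0.15 with 18. The pseudogene-biotype member Rps4l had the smallest p of that comparison. Its levels were 16.8, 25.5 and 29.5 CPM (lowest, median, highest) in excision and 23.4, 33.6 and 40.5 in burn libraries, which overlapped. The fitted difference was 0.38 on a log2 scale, with an SE of 0.12 and an adjusted p of 0.138. Rpl4 and Rpl15, both large subunit proteins, followed at 0.12 and 0.14. The difference of these fold changes between the hippocampal batches called 0 members, with medians of 0.10 for burn against sham (2 at an unadjusted p under 0.05, 0.0460% of all genes called), −0.01 for excision against sham (1, 0.0358%) and 0.12 for burn against excision (1, 0.0307%). These medians depended on single libraries. For burn against sham it was 0.00 without sham replicate 3, 0.02 without burn replicate 9 and 0.21 without sham replicate 7, where 379 of 19514 genes but 0 members were called. For excision against sham it was −0.11 without sham replicate 3, 0.06 without excision replicate 2 and 0.07 without sham replicate 7, and for burn against excision 0.05 without excision replicate 2 and 0.04 without burn replicate 9.

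In the frontal cortex most fold changes of burn against sham were below zero, and none was called. Across both batches the median of burn against sham was −0.21, against −0.02 over all genes, 87 of 89 members were below zero and 16 had an unadjusted p under 0.05 (15 with DESeq2), while 0.280% of all genes were called. The smallest p-values were those of Rpl30, which in yeast represses splicing of its own transcript (−0.25, SE 0.08, adjusted p = 0.169), Rps27 (−0.34, SE 0.12, adjusted p = 0.203) and Rps12 (−0.37, SE 0.15, adjusted p = 0.274). The stalk genes Rplp0, Rplp1 and Rplp2 stood at −0.21, −0.27 and −0.28, Rpl5 and Rpl11 at −0.12 and −0.20, and Rps6 at −0.16. The paralogues Rpl22l1 and Rps27l stood at −0.03 and −0.09, and Rpl22 at −0.12. Without sham replicate 1 the median was −0.07 and 2 members had an unadjusted p under 0.05. Excision against sham had a median of −0.10, with 0 at an unadjusted p under 0.05, and 0.03 without that library. Burn against excision had a median of −0.12, with 1 member at an unadjusted p under 0.05 and 0.209% of all genes called (0.0807% higher).

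The medians of the 2 frontal batches had opposite signs. In batch 1 alone, 18 of 89 members were called and all 18 were lower in burn than in sham (6.50% of all genes were called, 3.35% lower), with a median of −0.44. In batch 2 alone 0 were called by edgeR, with 0 at an unadjusted p under 0.05, the median was 0.10 and 0% of all genes were called. Burn replicates 7 and 8, whose titles name sham, are in batch 2, and no batch 2 value is given here without them. In 76 of the members the fold change was below zero in batch 1 and above zero in batch 2, among them 16 of the 18. The difference between the batches itself had a median of 0.52 and 49 members at an unadjusted p under 0.05, but 0 were called (lowest adjusted p = 0.153), and DESeq2 called 0 with 48. Without sham replicate 1 the median difference was 0.30 and 22 members had an unadjusted p under 0.05. In the same difference the 6 striatal markers were all above zero (median 1.95). So were the 5 tested blood markers (median 1.04), the 7 tested choroid plexus and ependymal markers (median 0.92) and the 8 oligodendrocyte markers (median 0.40). Of the microglial markers 6 of 8 were above zero (median 0.31), while 6 of 8 cortical ones were below (median −0.29). Neuronal markers split into 5 above and 4 below, astrocytic ones into 4 and 4 and hippocampal ones into 3 and 5. Of the nuclear-encoded oxidative phosphorylation subunits 71 of 79 were above zero (median 0.40), and of the mitochondrial ribosomal proteins 66 of 77 (median 0.28). The 13 mitochondrially encoded genes were all below zero (median −0.41). In each of these groups 0 genes were called, and their part in the members' values was not tested.

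Rps29, a small subunit protein with a zinc-finger fold, shows the pattern. In batch 1 the 5 sham libraries held 398, 212, 223, 194 and 241 CPM and the 5 burn libraries 139, 168, 172, 165 and 151, while excision libraries held 197, 244, 202, 169 and 166. Every burn library was below every sham library, and the excision libraries overlapped both. In batch 2 the 3 sham libraries held 141, 192 and 193 CPM and the 5 burn libraries 263, 200, 162, 180 and 189, which overlapped. The log2 fold change of Rps29 was −0.68 (SE 0.16, adjusted p = 0.0288) in batch 1 and 0.18 (SE 0.18, adjusted p = 0.841) in batch 2.

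The stalk gene Rplp1 held 684, 408, 460, 389 and 478 CPM in sham and 301, 343, 360, 370 and 297 in burn libraries of batch 1. The groups did not overlap, and the fold change was −0.54 (SE 0.13, adjusted p = 0.0320). In batch 2 Rplp1 held 278, 375 and 368 CPM in sham and 480, 349, 307, 362 and 385 in burn libraries, which overlapped. Rps6 was not among the called, with 415, 228, 262, 217 and 272 CPM in sham and 211, 232, 229, 213 and 208 in burn libraries, where burn replicates 2 and 3 lay above the lowest sham library. In batch 1, 32 of 87 members of at least 1 CPM had every burn library below every sham library, against 4.30% of genes of that level. No member showed such a separation of burn from sham, in either direction, in any other region and batch.

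The count of 18 rested in part on sham replicate 1, the library with the highest offset. Without it, an alternative chosen after seeing the data, 7 members were called lower in batch 1, all among the 18 (2.20% of all genes called), with a median of −0.22. Among the 7 were Rps16, Rps19, Rps26, Rps29 and the pseudogene-biotype member Rpl37rt, and their adjusted p ran from 0.0415 to 0.0477. Other values moved with treatment in the same libraries. Neuron markers took 0.693 to 0.871% of counts in the sham and 0.915 to 0.990% in the burn libraries of batch 1, and cortical markers 0.0644 to 0.0702% and 0.0735 to 0.0877%, in both cases without overlap. Striatal markers took 0.0415 to 0.144% and 0.0131 to 0.0544%, microglial markers 0.0380 to 0.0548% and 0.0351 to 0.0409%, and oligodendrocyte precursor markers 0.0219 to 0.0260% and 0.0181 to 0.0229%. All listed markers were detected, and the part of these shifts in the members' levels was not tested.

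**Figure D3:**
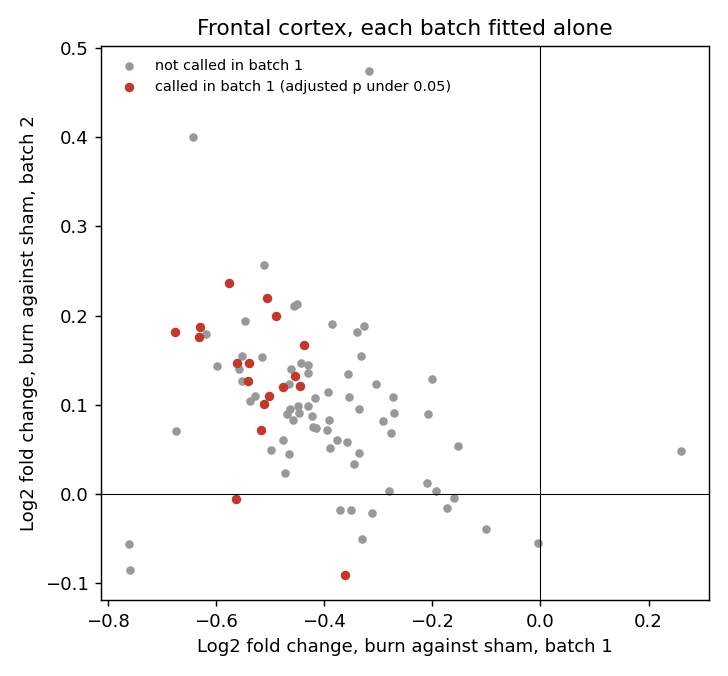
Log2 fold change of burn against sham in the frontal cortex for each tested member, with batch 1 fitted alone on the x axis and batch 2 fitted alone on the y axis. Red points are the 18 members called in batch 1, and 16 of them lie above zero in batch 2.

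In the piriform cortex the fold changes of burn against sham were also below zero, and none was called. The median of burn against sham was −0.28, against 0.00 over all genes, 88 of 89 members were below zero and 25 had an unadjusted p under 0.05 (31 with DESeq2), with a lowest adjusted p of 0.884 and 0% of all genes called. In the same comparison the 6 striatal markers were all above zero (median 0.53), while the 6 tested blood markers (median −0.49), the 8 oligodendrocyte markers (median −0.22) and 7 of 8 microglial markers (median −0.19) were below zero, with 0 called. The 7 tested hippocampal markers (median −1.05) and 7 of 8 choroid plexus and ependymal markers (median −1.21) were also below zero, with 0 called. Of the cortical markers 7 of 8 were above zero (median 0.12). Neuronal markers split into 5 above and 4 below, and astrocytic ones into 3 and 5. Striatal markers took 0.0167 to 0.148% of counts in sham and 0.0278 to 0.131% in burn libraries, and the part of these markers in the members' values was not tested. Rps21, among the 3 members with the smallest p, held 172, 120, 155, 108 and 121 CPM in sham, 149, 120, 112 and 140 in excision and 135, 114, 77.0, 97.5 and 95.5 in burn libraries. The 3 groups overlapped, and the highest value was that of sham replicate 1, the library with hippocampal markers. The log2 fold change of Rps21 was −0.38 (SE 0.15). Rpl37 stood at −0.39, and Rplp0, Rplp1, Rps6 and Rpl10 stood at −0.28, −0.35, −0.27 and −0.32. Without sham replicate 1 the median of burn against sham was −0.17 and 1 member had an unadjusted p under 0.05. Excision against sham had a median of −0.07 (0.03 without that library) with 0 members at an unadjusted p under 0.05, and burn against excision −0.21 with 1, with 0% of all genes called in each.

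Whether the responses differed between hippocampus and frontal cortex was tested as an interaction. Libraries of the regions were taken as independent, and a possible pairing by animal was not fitted. The hippocampal minus the frontal fold change of burn against sham had a median of 0.22 and was above zero in 87 of 89 members, but 0 were called, 4 had an unadjusted p under 0.05 and the lowest adjusted p was 0.527. DESeq2 called 0 with 6. Without frontal cortex sham replicate 1 the median was 0.11 with 0 at an unadjusted p under 0.05, without hippocampus burn replicate 9 it was 0.17 with 0, and without hippocampus sham replicate 3 it was 0.30 with 24. For excision against sham the median difference was −0.00 with 0 members at an unadjusted p under 0.05 in either tool, becoming −0.13 without frontal cortex sham replicate 1 and 0.05 without hippocampus sham replicate 3, and for burn against excision it was 0.23, above zero in 89 of 89, with 3 (4 with DESeq2). The latter had 18 without frontal cortex sham replicate 1, 14 without hippocampus excision replicate 2 and 1 without hippocampus burn replicate 9. Called genes were 0% of all genes in each.

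Members were called between the hippocampal batches. In batch 2 against batch 1, 36 of 89 members were called lower and 0 higher (16.4% of all genes were called, 8.54% lower and 7.86% higher), and the median was −0.18. Rpl22, whose place Rpl22l1 can take, held 88.0, 96.4 and 114 CPM (lowest, median, highest) in the 4 sham libraries of batch 1 and 78.6, 87.1 and 91.5 in the 5 of batch 2. Its burn libraries held 94.3, 101 and 111 against 81.7, 87.4 and 98.6, and its excision libraries 95.8, 97.8 and 105 against 81.8, 85.0 and 88.8. The excision libraries did not overlap between batches and the other groups did, and the log2 difference was −0.21 (SE 0.03, adjusted p = 0.000114). Rps2, at the mRNA entry of the small subunit, stood at a log2 difference of −0.33 with an SE of 0.06 (adjusted p = 0.000772), and Rps21 at −0.39 with an SE of 0.09 (adjusted p = 0.00390). Among the others of the 8 smallest p-values were Rps7 (−0.26), Rps3a1 (−0.26), Rpl7 (−0.21), Rps3a2 (−0.24) and the stalk gene Rplp2 (−0.31).

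Other gene groups were also called between the hippocampal batches. Of the nuclear-encoded oxidative phosphorylation subunits 37 of 80 were called lower and 0 higher, of the mitochondrial ribosomal proteins 18 of 77 lower and 0 higher, and of the other TOP mRNAs 7 of 17 lower and 0 higher. All 13 mitochondrially encoded genes were called higher. Of the cell type markers, 4 of 9 neuronal and 3 of 8 cortical ones were called higher with 0 lower, and 2 of 8 astrocytic ones lower with 0 higher. Their part in the members' calls was not tested. The depth of the batches differed as well, and with the libraries under 10 M counts left out 13 members were called (share of all genes not given). The count was 17 without sham replicate 3 (2592 of 19700 genes called) and 19 without excision replicate 2 (2461 of 19584). It was 55 without sham replicate 7 (3897 of 19514) and 64 without burn replicate 9 (3507 of 19388). In the frontal cortex 0 members were called between batches by edgeR or DESeq2 (10.0% of all genes by edgeR, 6.01% higher and 3.99% lower), with 2 and 3 at an unadjusted p under 0.05 and a median of −0.01.

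Between regions, the sham libraries of hippocampus and frontal cortex differed in 18 of 89 members, 16 higher and 2 lower in hippocampus (39.3% of all genes were called, 20.6% higher), with a median of 0.17. The share of members called was below that of all genes. By role, all 6 tested pseudogene-biotype members and 3 of 6 paralogues were called higher, and so were 6 of 43 large subunit genes, 1 of 30 small subunit genes and 0 of 3 stalk genes. Rps3a3, a processed pseudogene of Rps3a1 by its annotation, held 28.4, 34.7 and 43.0 CPM (lowest, median, highest) in the 9 hippocampal sham libraries, 1.82, 2.59 and 3.64 in the 8 frontal and 1.89, 3.12 and 3.91 in the 5 piriform ones. The hippocampal values lay far above all others, with a log2 difference to frontal cortex of 3.74 (SE 0.15, adjusted p = 8.92e-15). Rpl32l (3.10), Rps27rt (1.56), Rpl6l (1.31), Rpl37rt (1.18) and Rps3a2 (0.80) followed the same direction, as did Rpl24 (2.76), whose exons are largely overlapped.

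Rpl32l, with a difference of 3.10, shares no 100-base window with any other annotated transcript. Rps27l and Rpl22, which also share no 100-base window with any other annotated transcript, were higher in hippocampus too. The log2 difference of Rps27l was 0.50 with an SE of 0.12 (adjusted p = 0.00248), and that of Rpl22 was 0.24 with an SE of 0.08 (adjusted p = 0.0194). Rpl22 held 78.6, 88.0 and 114 CPM in hippocampal and 70.0, 76.3 and 111 in frontal sham libraries, which overlapped. Rpl29, a large subunit protein, was lower in hippocampus, at 115, 130 and 191 CPM in hippocampus against 139, 181 and 300 in frontal and 145, 179 and 267 in piriform cortex, with log2 differences of −0.35 (SE 0.13, adjusted p = 0.0399) and −0.47 (SE 0.15, adjusted p = 0.0153). Of its 100-base windows, 50.1% were shared with other annotated genes, 27 in number, and the part of shared reads in these values was not tested. The core genes Rplp0 (0.12), Rps6 (0.11), Rpl5 (0.09) and Rpl10 (0.13) were not called.

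All piriform libraries and no others are in batch 3, so in both comparisons with the piriform cortex region and batch cannot be told apart. The titles of these libraries name frontal cortex, so their region also rests on the label followed. Hippocampus against piriform cortex gave 11 calls, 10 higher and 1 lower (34.8% of all genes called), with Rps3a3 at 3.51. Piriform against frontal cortex gave 0 calls in edgeR and DESeq2, with 1 member at an unadjusted p under 0.05 in each (12.3% of all genes called by edgeR, 6.64% higher and 5.68% lower) and a median of 0.04, which was −0.05 without piriform cortex sham replicate 1. The count for hippocampus against frontal cortex was 38 without frontal cortex sham replicate 1, where 9406 of 21305 genes were called. It also moved with the treatment group taken: in burn libraries 78 members were called, all higher in hippocampus (49.1% of all genes called), and in excision libraries 29, with 26 higher (39.7%). No member was called for a difference in treatment response between these regions, as given above. The medians were 0.37 in burn, 0.14 in excision and 0.17 in sham libraries.

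**Figure D4:**
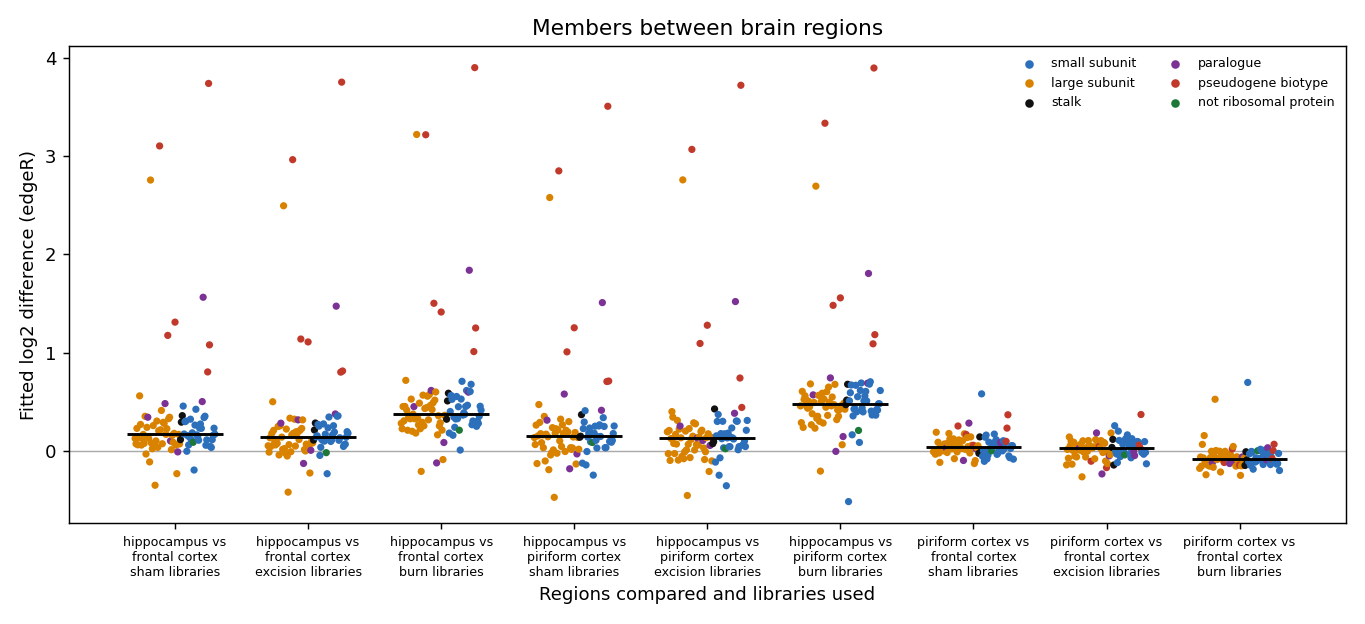
Fitted log2 differences between regions (y axis) for the tested members, from sham, excision or burn libraries (x axis). Points are members coloured by role and bars are medians. In sham libraries Rps3a3 (3.74), Rpl32l (3.10) and Rpl24 (2.76) lie highest for hippocampus against frontal cortex, and the members run from −0.13 to 0.58 between the cortices.

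The loci named as pseudogenes of the members were also higher in hippocampus. They took 0.408 to 0.666% of counts in the hippocampus, 0.177 to 0.390% in the frontal cortex and 0.156 to 0.262% in the piriform cortex. Their ratio to the members' counts was 0.315 to 0.328 in the 29 hippocampal libraries, 0.156 to 0.181 in the 28 frontal and 0.152 to 0.168 in the 14 piriform libraries. The hippocampal ratios did not overlap those of the cortices and hardly varied within the region, across both batches and all treatments. The sources used here do not say whether the reads of the regions were trimmed, aligned and counted alike. For these loci, the pseudogene-biotype members and other members with shared sequence, a regional difference in RNA and a difference in processing cannot be told apart. Of 150 such loci tested, 129 were called higher and 4 lower in hippocampal than in frontal sham libraries (88.7% called, against 39.3% of all genes), and 0 differed between piriform and frontal cortex. The library labelled piriform cortex sham replicate 1, with its hippocampal markers, had the cortical values: 3.04 CPM of Rps3a3, 0.687 of Rpl32l and 11.6 of Rps27rt, against at least 28.4, 4.01 and 22.9 in every hippocampal library.

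**Figure D5:**
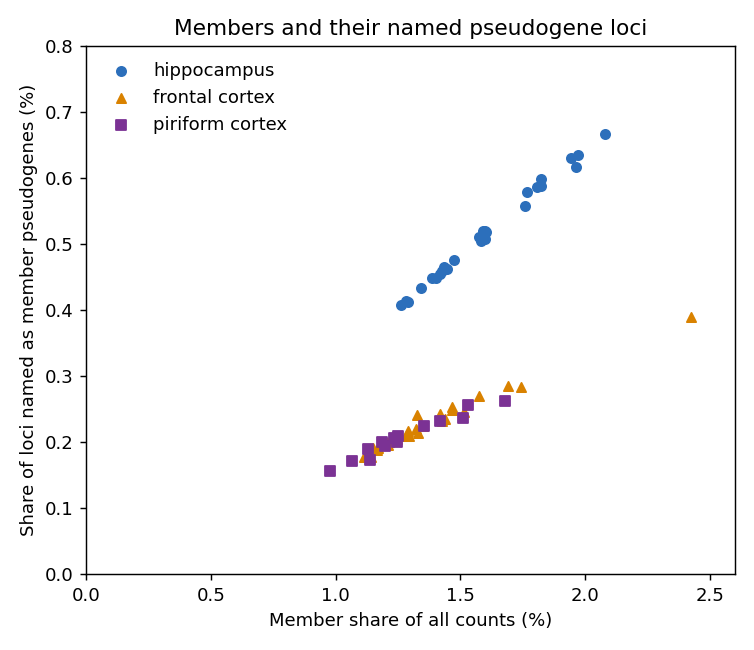
Share of counts in loci named as pseudogenes of the members (y axis, percent) against the share in the members (x axis, percent) for each library, with hippocampus as circles, frontal cortex as triangles and piriform cortex as squares. Hippocampal libraries form a line at a ratio of 0.315 to 0.328 and the cortical libraries another at 0.152 to 0.181.

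Shared sequence sets how far members can be told from their copies. Of the 92 members, 11 shared no 100-base window of their transcript with another annotated gene, 39 shared over 50% of theirs, and the median share was 40.6%. The sources used here do not say how reads that match several places were counted. With the counts of the named pseudogene loci added to their members, an alternative chosen after seeing the data, 39 members were called between hippocampus and frontal cortex (38 higher, 39.9% of all genes called) and 0 in each of the 9 treatment comparisons.

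Related gene groups showed no call with burn against sham, with 1 exception. In the frontal cortex 0 of 79 nuclear-encoded oxidative phosphorylation subunits (median −0.12), 0 of 17 other TOP mRNAs (−0.06), 0 of 24 ribosome biogenesis factors (0.01) and 0 of 12 genes of ribosomal RNA synthesis (−0.07) were called, and 1 of 18 genes of the mTORC1 and Larp1 pathway was called lower (median 0.06). In the hippocampus the medians of these groups were 0.02, 0.05, −0.01, −0.11 and −0.00, and in the piriform cortex −0.17, −0.09, −0.04, −0.02 and 0.01, with 0 called.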

How the data were processed

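The deposited values are counts per gene, made by the authors and used as deposited. Per the submitters' processing notes FastQC 0.11.3, fastp, STAR and DESeq2 1.24.0 with GRCm38 were used, and the sources used here name no counter, annotation, strand setting or treatment of reads with several matches. Identifiers without a symbol held 0.847% of counts and stayed in library sizes. CPM are counts per 1000000 of a library's total. Per-length levels divide by the principal transcript of GENCODE M21, also used for shared windows and overlaps; promoter sequences are from RefSeq.

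The members and lists were chosen with earlier results of these data known. Each region was fitted with edgeR 4.0.16 (TMM, filterByExpr, quasi-likelihood test, batch as an additive term, limma 3.58.1, R 4.3.3), p-values were adjusted over all genes tested, and an adjusted p under 0.05 was a call. Regions were compared in sham libraries. DESeq2 1.42.0 and other normalizations, filters, batches, labels and left-out libraries were alternatives. All members were counted; values were printed for up to 8 called members with the smallest p, or 3 where none was called, for the highest and lowest per length, and for a fixed set of stalk, checkpoint and paralogue genes, of which some are given only within a range or count. On simulated counts for frontal cortex burn against sham (21077 genes), 22% of genes changed 1.25-fold, 68% at 1.5-fold and 94% at 2-fold were recovered. Same-numbered libraries did not deviate together (correlation over 0.1 in 12 of 28 hippocampal, 9 of 24 frontal and 4 of 11 piriform pairs). Results for some genes are not reported here.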

Additional observations from a re-analysis of the deposited data

Results flagged for a closer look

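Frontal cortex sham replicate 1 stood apart from the other 4 sham libraries of its batch in the share of counts taken by the members, 2.43%, by Dixon's criterion for a sample far from the rest. It was the only one of 14 groups of 4 or 5 libraries with such a sample, and chance alone marks about 1 group in 20. The same library had the lowest share of mitochondrially encoded counts of the 28 frontal libraries, 1.98%. With and without it, the median log2 fold change of the members for burn against sham in the frontal cortex was −0.21 and −0.07, and for excision against sham −0.10 and 0.03.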

How the results depend on the processing

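In the 9 treatment comparisons 0 members were called under every other normalization, filter and choice of libraries listed for them except those named here, and in the fits that left out 1 library each the count was 0 to 0. In the frontal cortex burn against sham gave 18 calls in batch 1 alone and 7 in batch 1 with sham replicate 1 left out, a setting chosen after seeing the data in which burn against excision gave 4. With the replicate block, which changed no call, 0 members were called in the 9 comparisons, and the median of burn against sham was 0.07 in hippocampus, −0.16 in frontal and −0.35 in piriform cortex. The 36 calls between hippocampal batches became 15 with no count filter, 0 with sham libraries alone, 13 without libraries under 10 M counts and 17 to 64 with 1 library left out. The 18 calls between hippocampus and frontal cortex became 39 with pseudogene loci added, 78 in burn and 29 in excision libraries and 12 to 38 with 1 library left out. The 11 between hippocampus and piriform cortex became 29, 80, 19 and 9 to 14 in the same order. The 14 came with 7890 of 21305 genes called without frontal cortex sham replicate 1 and 8011 of 21373 without piriform cortex sham replicate 1. Piriform against frontal cortex gave 4 calls in burn libraries. For the 29, 80 and 19 calls against piriform cortex and both counts of 4, the share of all genes called is not given here. It is also not given for the 15 and 13 calls between hippocampal batches. None of these counts is read as a result about the members. The causes were not tested. No call changed direction, but with 1 library left out the members' median changed sign for burn against sham in hippocampus (0.03 to −0.03), for excision against sham in frontal (−0.10 to 0.03) and piriform cortex (−0.07 to 0.03) and for piriform against frontal cortex (0.04 to −0.05). Depth was not varied in the simulated counts.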
